A study of Mus musculus with 6 samples.

Results

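The proteasome genes of mouse CD8+ T cells are described here, in cells labelled as deficient in the transcription factors Tcf1 and Lef1 (double knockout, DKO) and in wild-type (WT) cells. Members were all genes whose symbol begins with Psma to Psmg followed by a digit, which gave 50 of the 23951 rows of the deposited table. With a filter at a mean of 1 FPKM over the 6 libraries, 48 of the 50 were tested. The genes below the filter were Psma8, a testis form of a core subunit, which lay between 0 and 0.0956 FPKM in all libraries, and Psmb11, the thymus-specific catalytic subunit, which lay between 0.242 and 0.587 FPKM. Of the 48 tested, Psmc3ip and Psme2b match by name without being established subunits, which leaves 46 subunits, assembly factors and regulators.

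Both genotypes carried hCD2-Cre, a transgene that drives Cre in lymphocytes, and Rosa26-lsl-GFP, a reporter that marks cells in which Cre has acted. The DKO mice had floxed Tcf7 (which encodes Tcf1) and Lef1 alleles and the WT mice had wild-type alleles of both. Naive CD8+ T cells from spleen, sorted as GFP+ TCRbeta+ CD62Lhi CD44lo-med, were kept in culture with the cytokines IL-7 and IL-15, which maintain naive and memory CD8+ T cells, for 72 h. There were 3 libraries per genotype at 72 h, listed below in the order of their column numbers 0, 1 and 2, and these could not be matched to the numbering in the labels. For cells at 0 h, only the group values of the authors' deposited table were used. The labels do not say whether libraries came from separate animals, so the p-values describe how these samples vary, and some of that variation may be technical. In bulk RNA, fewer cells of a type and less RNA per cell cannot be told apart.

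The targeted genes were checked first. Tcf7 stood at 289, 270 and 277 FPKM in the DKO libraries, against 564, 555 and 532 FPKM in the WT libraries, and Lef1 stood at 48.5, 51.8 and 52.2 FPKM in the DKO libraries, against 132, 105 and 157 FPKM in the WT libraries. The number of genes at or above 1 FPKM was 10473 to 10551 per library, and absolute depth is unknown because the values are FPKM (fragments per length and library size). The T cell genes Cd3e, Cd3g, Cd8a, Cd8b1 and Cd5 together reached 2596 to 2916 FPKM in the DKO libraries and 2448 to 2789 FPKM in the WT libraries. Of these 5 genes, 0 were called, where 10.7% of all genes were called in either direction. Summed over their lists, 4 B cell genes reached 17.96 to 27.02 FPKM in the DKO libraries and 13.4 to 21.8 FPKM in the WT libraries, nearly all of it from Cd79b, while Ms4a1 was listed at 0 in every library. The 6 myeloid genes summed to 0.732 to 2.74 FPKM in the DKO libraries and 1.11 to 7.30 FPKM in the WT libraries. The 6 erythroid and platelet genes summed to 0.762 to 2.29 FPKM in the DKO libraries and 0.355 to 2.07 FPKM in the WT libraries, with Hba-a1, Hba-a2 and Gp9 at 0. The 3 natural killer genes summed to 4.20 to 12.2 FPKM in the DKO libraries and 42.2 to 90.5 FPKM in the WT libraries, nearly all of it from Eomes, which CD8+ T cells also express. The division genes Mki67, Top2a, Ccnb1, Bub1, Rrm2 and Uhrf1 were all called lower in DKO cells (6 of 6, median log2 fold change -2.03), where 6.36% of all genes were. The part of the division and natural killer genes in the proteasome results was not tested.

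The proteasome is the protease that degrades ubiquitin-tagged proteins. Its barrel-shaped core consists of outer rings of alpha subunits, which gate the entrance, and inner rings of beta subunits, of which Psmb5, Psmb6 and Psmb7 cut the substrate. A regulatory particle caps the core and has a base, whose ATPases unfold the substrate, and a lid, which removes ubiquitin. In lymphocytes, and in other cells after interferon gamma, the subunits Psmb8, Psmb9 and Psmb10 take the places of Psmb5, Psmb6 and Psmb7, which gives the immunoproteasome. It is known for producing peptides that fit MHC class I molecules, and the activator PA28, formed by Psme1 and Psme2, is induced together with it.

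The start regions of both members of 2 exchange pairs, and of Psme1, are printed because the comparisons of immunoproteasome and constitutive genes turn on them. Each run is 300 bases, from 250 before to 50 after the start, from RefSeq on GRCm38.p6, which covered 42 of the 50 members with 45 promoters. Psmb8 lies at chr17:34197945-34198244 on the plus strand, Psmb9 at chr17:34187281-34187580 on the minus strand, Psmb5 at chr14:54617946-54618245 on the minus strand, Psmb6 at chr11:70525107-70525406 on the plus strand and Psme1 at chr14:55578244-55578543 on the plus strand. Capitals mark matches, on either strand, to any of 5 motifs searched: the interferon regulatory factor motif, which is GAAA repeated after a gap of any 2 bases, the gamma-activated site motif TTCNNNGAA, the antioxidant response motif TGACNNNGC, the TCF/LEF core TCAAAG and the CCAAT box, and the marked matches do not overlap each other.
Psmb8: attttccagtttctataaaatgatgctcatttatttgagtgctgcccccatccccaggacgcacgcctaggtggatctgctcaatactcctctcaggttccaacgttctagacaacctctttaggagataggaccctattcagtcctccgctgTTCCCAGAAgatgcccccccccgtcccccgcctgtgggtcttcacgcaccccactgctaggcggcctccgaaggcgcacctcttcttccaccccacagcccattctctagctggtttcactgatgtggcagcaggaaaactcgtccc
Psmb9: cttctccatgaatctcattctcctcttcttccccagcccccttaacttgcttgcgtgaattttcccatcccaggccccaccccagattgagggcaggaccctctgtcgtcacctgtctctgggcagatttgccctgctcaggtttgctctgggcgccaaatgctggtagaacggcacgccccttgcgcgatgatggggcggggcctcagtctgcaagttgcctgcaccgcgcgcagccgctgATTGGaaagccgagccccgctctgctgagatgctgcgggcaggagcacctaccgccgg
Psmb5: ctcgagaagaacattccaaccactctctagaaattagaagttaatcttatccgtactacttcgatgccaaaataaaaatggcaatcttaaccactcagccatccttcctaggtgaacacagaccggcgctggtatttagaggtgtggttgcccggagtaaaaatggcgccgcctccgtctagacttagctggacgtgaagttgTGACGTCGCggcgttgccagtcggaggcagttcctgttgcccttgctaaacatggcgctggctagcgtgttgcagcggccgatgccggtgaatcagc
Psmb6: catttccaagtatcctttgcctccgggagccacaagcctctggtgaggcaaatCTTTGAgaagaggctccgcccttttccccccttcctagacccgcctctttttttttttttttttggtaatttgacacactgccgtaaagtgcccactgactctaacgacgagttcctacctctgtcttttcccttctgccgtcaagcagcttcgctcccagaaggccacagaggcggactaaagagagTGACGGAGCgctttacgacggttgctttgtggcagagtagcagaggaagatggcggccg
Psme1: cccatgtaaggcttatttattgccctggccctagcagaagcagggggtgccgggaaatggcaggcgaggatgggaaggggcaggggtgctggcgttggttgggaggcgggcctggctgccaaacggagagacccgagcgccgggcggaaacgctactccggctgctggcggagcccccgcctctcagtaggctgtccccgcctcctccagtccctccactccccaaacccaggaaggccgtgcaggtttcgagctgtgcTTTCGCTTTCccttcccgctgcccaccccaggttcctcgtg
The marked bases are a gamma-activated site match in Psmb8, a CCAAT box on the other strand in Psmb9, an antioxidant response match in Psmb5, a TCF/LEF core on the other strand followed by an antioxidant response match in Psmb6, and an interferon regulatory factor match on the other strand in Psme1. The start of Tap1, a subunit of the transporter that carries peptides to MHC class I, falls inside the Psmb9 window, so this pair of genes faces apart from a shared region, with Psmb8 as the next gene beyond Tap1. Over the member promoters, the interferon regulatory factor motif was found in 11.1% (5 of 45, those of Psmb3, Psmd4, Psmd9, Psme1 and Psmg4), against 3.44% of all 32851 promoters. The gamma-activated site motif was in 6.67%, against 8.3% of all promoters, and the antioxidant response motif in 13.3%, against 12.4% of all promoters. The TCF/LEF core was in 13.3% (Psma1, Psma2, Psmb6, Psmd10, Psmd4 and Psmf1), against 16% of all promoters, and the CCAAT box in 33.3%, against 37.4%. A match is a description of the letters and not a binding site.

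At 72 h, proteasome genes lay slightly lower in DKO than in WT cells, but no subunit passed the test. Log2 fold changes (DKO over WT, of FPKM + 1) were below 0 for 45 of the 48 genes tested, against 48.69% of all genes. When small RNA rows were removed and libraries rescaled, 33 of 48 were below 0, against 28.17% of all genes. On the deposited scale, the median of the 48 was -0.24, against 0.0082 over all 10723 genes tested. With small RNA rows removed, the median of all genes moved to 0.16 and the proteasome median to -0.07, a distance of -0.24 in place of -0.25. Here and below this setting includes scaling of each library to an equal summed FPKM, and the steps were not separated. The deposited sums were 760500, 771100 and 672700 FPKM in the DKO libraries, against 703700, 902300 and 830100 FPKM in the WT libraries. By limma with Benjamini-Hochberg adjustment over all genes at 0.05, 0 of 48 were called higher, where 4.31% of all genes were, and 1 of 48, Psmc3ip, was called lower, where 6.36% of all genes were. At an unadjusted p under 0.05, 6 of 48 were lower (13.6% of all genes) and 1 was higher (12.6% of all genes). Expression in the DKO libraries lay wholly below that in the WT libraries for 12 of 48 members, or 25%, where 17.1% of all genes did so, and wholly above for Psme2b, where 17% of all genes did so. Without WT library 1, the proteasome median was -0.11, with 38 of 48 genes below 0.

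**Figure D1:**
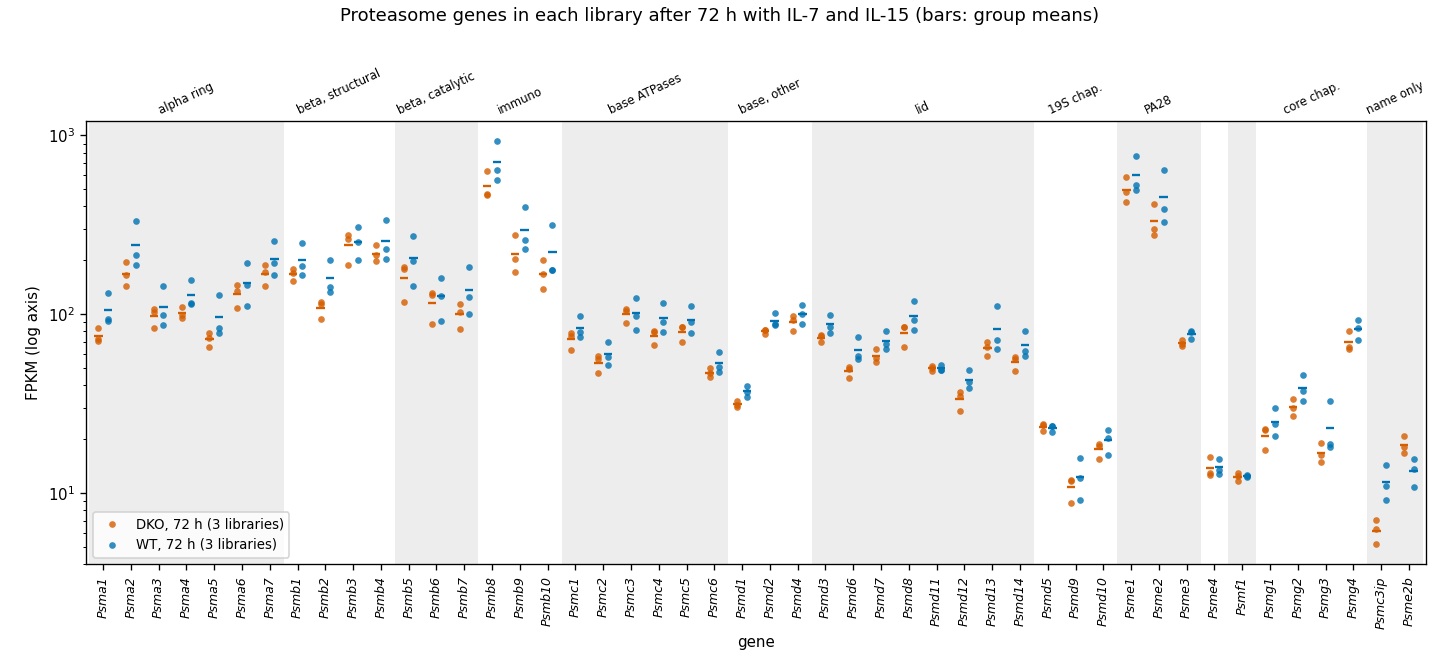
FPKM (log axis) of the 48 proteasome genes in each of the 3 DKO (orange, left) and 3 WT (blue, right) libraries at 72 h, with bars at the group means, ordered by role in the complex. Psmb8 and Psme1 reach the highest levels of the family, and the points of both genotypes overlap for most genes.

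**Figure D2:**
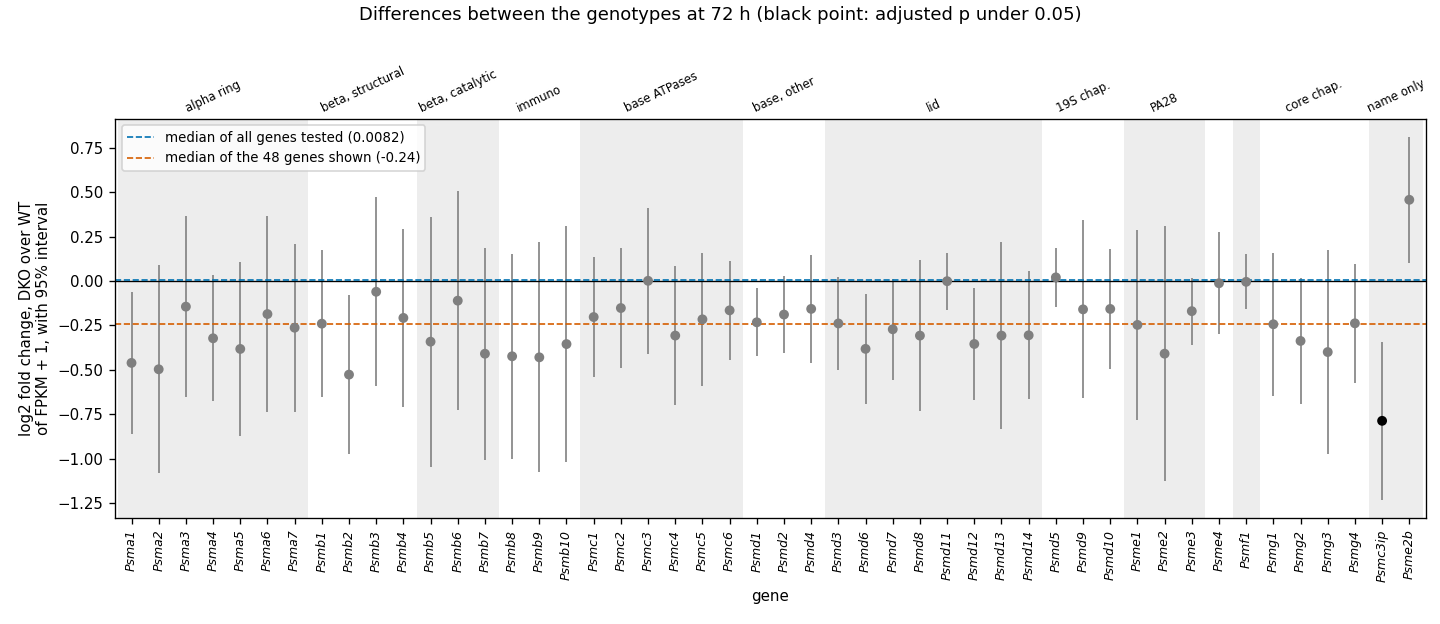
Log2 fold change, DKO over WT, of FPKM + 1 for each proteasome gene with its 95% interval, on the deposited scale. Of the 48 genes, 45 lie below 0, against 48.69% of all genes. After removal of small RNA rows and rescaling of the libraries 33 do, against 28.17% of all genes. Psmc3ip (black) is the 1 gene called, and most intervals include 0.

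The immunoproteasome subunits were among the abundant transcripts of these cells in both genotypes. Psmb8, which replaces Psmb5, stood at 464, 630 and 469 FPKM in the DKO libraries, against 560, 928 and 637 FPKM in the WT libraries. By mean FPKM it ranked 162 of the 10723 genes tested, and the groups overlapped because DKO library 1 lay above WT library 0. By limma the log2 fold change was -0.42 with an SE of 0.24 (adjusted p = 0.31). Psmb9, which replaces Psmb6, stood at 171, 277 and 205 FPKM in the DKO libraries, against 232, 395 and 260 FPKM in the WT libraries, a log2 fold change of -0.43 (limma adjusted p = 0.36). Here too DKO library 1 exceeded WT libraries 0 and 2. Psmb10, which replaces Psmb7, stood at 139, 200 and 167 FPKM in the DKO libraries, against 175.5, 316 and 175.5 FPKM in the WT libraries, a log2 fold change of -0.36 (limma adjusted p = 0.46). For all 3 genes, DKO library 0 was the lowest and WT library 1 the highest of the 6 libraries. Summed over the 3 genes, the level was 907 ± 176 FPKM in DKO cells and 1226 ± 361 FPKM in WT cells (SD, n = 3 each). The median log2 fold change of the 3 was -0.42, and -0.20 without WT library 1.

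Of the 3 constitutive catalytic subunits, 0 were called, where 10.7% of all genes were called in either direction. Psmb5, the chymotrypsin-like subunit, stood at 178, 183 and 117 FPKM in the DKO libraries, against 143, 273 and 199 FPKM in the WT libraries (log2 fold change -0.34, limma adjusted p = 0.49). Psmb6, the caspase-like subunit, stood at 131, 127 and 87.5 FPKM in the DKO libraries, against 91.6, 160 and 126 FPKM in the WT libraries (log2 fold change -0.11, limma adjusted p = 0.81). Psmb7, the trypsin-like subunit, stood at 103, 114 and 82.3 FPKM in the DKO libraries, against 100.4, 183 and 125 FPKM in the WT libraries (log2 fold change -0.41, limma adjusted p = 0.34). In each of the 3, the groups overlapped, and DKO library 2 was the lowest and WT library 1 the highest. The sign for Psmb6 was not stable, since its log2 fold change was 0.075 without DKO library 2 and 0.080 without WT library 1. It was 0.062 with small RNA rows removed, where the median of all genes was 0.16.

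Because the subunits of a pair exchange for each other in the complex, their ratio was taken within each library, where scaling of the library cancels. The immunoproteasome gene was the more abundant by FPKM, which is per length, in every pair and every library. Psmb8 over Psmb5 was 2.60, 3.45 and 4.01 in the DKO libraries, against 3.92, 3.41 and 3.19 in the WT libraries, with means of 3.36 ± 0.71 in DKO cells and 3.51 ± 0.37 in WT cells (SD, n = 3 each). Psmb9 over Psmb6 was 1.31, 2.17 and 2.34 in the DKO libraries, against 2.53, 2.47 and 2.07 in the WT libraries. Psmb10 over Psmb7 was 1.35, 1.75 and 2.03 in the DKO libraries, against 1.75, 1.73 and 1.41 in the WT libraries. DKO library 0 had the lowest ratio in all 3 pairs. The differences in mean log2 ratio, DKO minus WT, were -0.08, -0.32 and 0.06 in the same order of pairs, with exact permutation p-values of 0.9, 0.3 and 0.8, two-sided, each 0.9 after adjustment over the 3 pairs. With 3 libraries against 3, the smallest p this test allows is 0.1. The difference for Psmb8 over Psmb5 changed sign, to 0.091 without DKO library 0 and to 0.0021 without WT library 0, and that for Psmb9 over Psmb6 was -0.057 without DKO library 0.

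**Figure D3:**
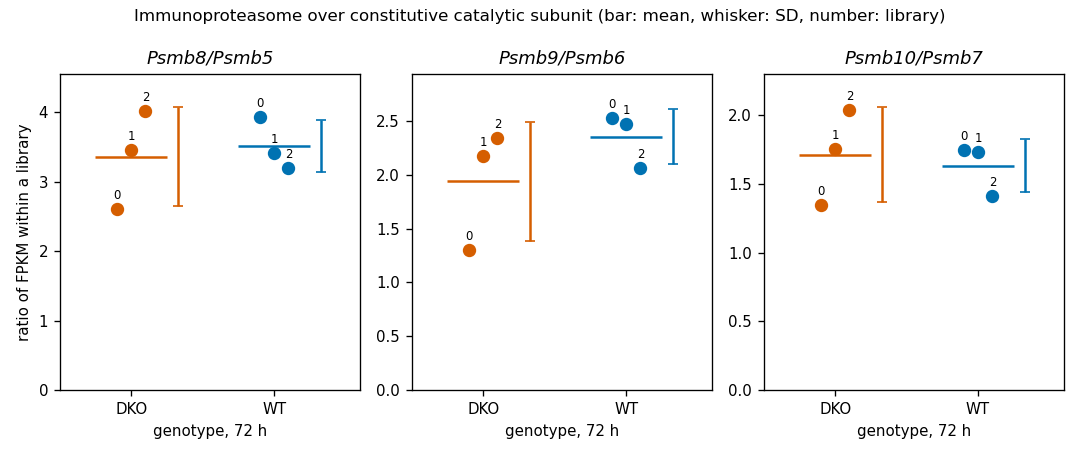
Ratio of FPKM of the immunoproteasome subunit over the constitutive subunit it replaces, within each DKO (left) and WT (right) library, with numbers giving the library, horizontal bars the mean and whiskers the SD of 3 libraries. All ratios lie above 1, and DKO library 0 is the lowest point in each of the 3 panels.

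DKO library 0 also stood apart from the other DKO libraries for a regulator of immunoproteasome genes and for a peptide transport gene. Irf1, an interferon-induced activator of Psmb9 and Tap1, stood at 141, 248 and 230 FPKM in the DKO libraries, against 193, 253 and 166 FPKM in the WT libraries. The genotypes overlapped, and DKO library 0 was the lowest of the 6. Tap1, which faces Psmb9 across the shared region, stood at 121, 202 and 202 FPKM in the DKO libraries, against 159, 174 and 137 FPKM in the WT libraries. Its log2 fold change was 0.12 (limma adjusted p = 0.76), beside -0.43 for Psmb9, and the difference between these values was not tested. The part of the Irf1 level in the low Psmb8, Psmb9 and Psmb10 of DKO library 0 was not tested.

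All 14 constitutive core subunits had log2 fold changes below 0, against 48.69% of all genes. Of the 14, 0 were called, where 10.7% of all genes were. The median log2 fold change of the 14 was -0.29, and -0.10 without WT library 1. With small RNA rows removed it was -0.12, beside 0.16 over all genes, a distance of -0.28 in place of -0.30. Among the alpha ring, Psma1 stood at 72.3, 83.1 and 70.8 FPKM in the DKO libraries, against 91.1, 132 and 93.7 FPKM in the WT libraries. Psma4 stood at 98.8, 110.2 and 95.2 FPKM in the DKO libraries, against 114, 155 and 116 FPKM in the WT libraries. For both genes the groups did not overlap, with log2 fold changes of -0.46 for Psma1 (limma adjusted p = 0.14) and -0.32 for Psma4 (limma adjusted p = 0.22). Over the core, the DKO libraries lay wholly below the WT libraries for 4 of 14 genes (28.57%), where 17.1% of all genes did so. The 4 were Psma1, Psma4, Psma5 and Psmb2. The other alpha subunits, Psma2, Psma3, Psma5, Psma6 and Psma7, had log2 fold changes between -0.50 and -0.14. Psmb2, a beta subunit without catalytic activity, stood at 114, 117 and 93.8 FPKM in the DKO libraries, against 133, 200 and 142 FPKM in the WT libraries. Its log2 fold change of -0.53 was the lowest of the core on the deposited scale (limma adjusted p = 0.14), and all DKO libraries lay below all WT libraries. Psmb1, also without catalytic activity, stood at 170, 178 and 153 FPKM in the DKO libraries, against 165, 248 and 186 FPKM in the WT libraries (log2 fold change -0.24, limma adjusted p = 0.42), with overlap. Psmb3 and Psmb4, the most abundant of the core by FPKM, had log2 fold changes of -0.06 and -0.21.

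Each position of the assembled barrel is filled in equal copies, with those of Psmb5, Psmb6 and Psmb7 shared with the immunoproteasome subunits. Transcript levels of the constitutive core genes were spread within a few fold. Within a library, the highest of the 14 constitutive core genes was 3.03 to 3.63 times the lowest in the DKO libraries and 2.60 to 3.02 times in the WT libraries. The coefficient of variation over the 14 genes was 36.49% to 38.72% in the DKO libraries and 32.96% to 34.55% in the WT libraries. The highest was Psmb3 or Psmb4 and the lowest Psma5 or Psma1 in all 6 libraries. For the 17 subunits of the regulatory particle, the highest was 3.10 to 3.35 times the lowest in the DKO libraries and 2.41 to 3.12 times in the WT libraries. Their median FPKM was lower than that of the core in every library, at 58.3 to 70.1 FPKM in the DKO libraries and 68.2 to 97.4 FPKM in the WT libraries, beside core medians of 102 to 136 FPKM in the DKO libraries and 123.5 to 197 FPKM in the WT libraries.

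In the regulatory particle, 16 of 17 subunits had log2 fold changes below 0, against 48.69% of all genes. Of the 17, 0 were called, where 10.7% of all genes were. The median was -0.23. With small RNA rows removed it was -0.06, beside 0.16 over all genes, a distance of -0.23 in place of -0.24. Among the ATPases of the base, Psmc4 stood at 79.7, 80.4 and 67.3 FPKM in the DKO libraries, against 79.2, 116 and 89.8 FPKM in the WT libraries (log2 fold change -0.31, limma adjusted p = 0.29). Psmc1 stood at 75.2, 78.0 and 63.4 FPKM in the DKO libraries, against 74.0, 97.4 and 79.1 FPKM in the WT libraries (log2 fold change -0.20, limma adjusted p = 0.40). The groups overlapped for all 6 ATPases, and Psmc3 was level between the genotypes at 99.8 ± 9.62 FPKM in DKO cells and 100.8 ± 21.1 FPKM in WT cells (SD, n = 3 each). The scaffold subunits of the base were tighter among libraries. Psmd1 stood at 32.7, 30.9 and 30.1 FPKM in the DKO libraries, against 36.7, 39.6 and 34.5 FPKM in the WT libraries (log2 fold change -0.23, limma adjusted p = 0.13). Psmd2 stood at 81.96, 81.5 and 77.1 FPKM in the DKO libraries, against 86.5, 100.9 and 87.8 FPKM in the WT libraries (log2 fold change -0.19, limma adjusted p = 0.24). For Psmd1 and Psmd2 every DKO library lay below every WT library, as for 17.1% of all genes.

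Of the 8 lid subunits, Psmd3, Psmd6, Psmd12 and Psmd14 had DKO libraries wholly below the WT libraries, as 17.1% of all genes did. Psmd6 stood at 49.1, 50.5 and 44.1 FPKM in the DKO libraries, against 56.3, 74.4 and 58.6 FPKM in the WT libraries (log2 fold change -0.38, limma adjusted p = 0.12). Psmd12 stood at 34.6, 36.8 and 28.7 FPKM in the DKO libraries, against 38.6, 48.4 and 41.6 FPKM in the WT libraries (log2 fold change -0.35, limma adjusted p = 0.15). Psmd14, the enzyme that cuts ubiquitin from the substrate, averaged 53.6 ± 5.04 FPKM in DKO cells and 67.0 ± 12.2 FPKM in WT cells (log2 fold change -0.31, limma adjusted p = 0.25). Psmd11 was the exception in the lid, at 49.8 ± 1.48 FPKM in DKO cells and 49.9 ± 1.63 FPKM in WT cells (SD, n = 3 each), a log2 fold change of -0.0012 with a 95% interval of -0.16 to 0.16.

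Psme1 and Psme2, the subunits of PA28, were close to Psmb8 in abundance. Psme1 stood at 422, 586 and 484 FPKM in the DKO libraries, against 496, 769 and 526 FPKM in the WT libraries (log2 fold change -0.25, limma adjusted p = 0.51). Psme2 stood at 279, 415 and 298 FPKM in the DKO libraries, against 327, 643 and 385 FPKM in the WT libraries (log2 fold change -0.41, limma adjusted p = 0.43). They ranked 179 and 235 by mean FPKM, the groups overlapped for both, and DKO library 0 was the lowest, as for the immunoproteasome subunits. Psme1 over Psme2 within a library was 1.52, 1.41 and 1.62 in the DKO libraries, against 1.52, 1.20 and 1.37 in the WT libraries. Psme3, which forms a nuclear activator of its own, stood at 66.5, 67.7 and 71.3 FPKM in the DKO libraries, against 79.2, 80.3 and 72.2 FPKM in the WT libraries. The DKO libraries lay wholly below the WT libraries, as for 17.1% of all genes, and the log2 fold change of Psme3 was -0.17 (limma adjusted p = 0.23). With small RNA rows removed it was 0.0020, where the median of all genes was 0.16. Psme4, the large activator PA200, and Psmf1, an inhibitor of the core, had log2 fold changes of -0.013 (95% interval -0.30 to 0.27) and -0.0049 (95% interval -0.16 to 0.15).

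Of the assembly factors, 0 of 7 were called, where 10.7% of all genes were called in either direction. The 4 chaperones of core assembly, Psmg1 to Psmg4, all had log2 fold changes below 0, with a median of -0.29. With small RNA rows removed this median was -0.12, beside 0.16 over all genes, a distance of -0.29 in place of -0.30. Psmg2 stood at 33.5, 29.8 and 26.9 FPKM in the DKO libraries, against 32.6, 45.5 and 37.4 FPKM in the WT libraries (log2 fold change -0.34, limma adjusted p = 0.21). Psmg4 stood at 65.4, 80.3 and 63.8 FPKM in the DKO libraries, against 71.3, 92.3 and 84.1 FPKM in the WT libraries (log2 fold change -0.24, limma adjusted p = 0.33). Both overlapped between genotypes. Of the chaperones of the base, Psmd10 averaged 17.5 ± 1.83 FPKM in DKO cells and 19.7 ± 3.13 FPKM in WT cells, and Psmd9 averaged 10.7 ± 1.66 FPKM in DKO cells and 12.3 ± 3.26 FPKM in WT cells (SD, n = 3 each). Their log2 fold changes were both -0.16, and 0.0081 and 0.0012 with small RNA rows removed, where the median of all genes was 0.16. Psmd5, the remaining base chaperone, had a log2 fold change of 0.020 (95% interval -0.15 to 0.19).

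The genes that stood furthest from the rest of the family were those that match by name only. Psmc3ip, a partner of recombinases in meiosis, stood at 7.04, 6.26 and 5.15 FPKM in the DKO libraries, against 10.9, 14.4 and 9.07 FPKM in the WT libraries. It was lower in DKO than in WT cells by limma, with a log2 fold change of -0.79 (SE 0.18, adjusted p = 0.048). The groups did not overlap. The adjusted p lay between 0.052 and 0.20 under 12 alternatives, among them leaving out any library but WT library 2, and its q in the authors' deposited table was 0.20. Psme2b, a close copy of Psme2, stood at 16.6, 18.01 and 20.8 FPKM in the DKO libraries, against 15.4, 10.9 and 13.5 FPKM in the WT libraries. Every DKO library was above every WT library, with a log2 fold change of 0.46 (limma adjusted p = 0.11). Its longest transcript shares 68.7% of its 50-base stretches with Psme2, so reads can be split between the copies and both values are uncertain. Psme2b read as a percentage of Psme2 was 5.97%, 4.34% and 6.98% in the DKO libraries, against 4.72%, 1.69% and 3.51% in the WT libraries.

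The members moved together between libraries of the same genotype. WT library 1 was the highest of the 6 for 43 of 48 proteasome genes, among them all 14 constitutive core genes and all 3 immunoproteasome genes, where it was the highest for 30.05% of all genes. DKO library 2 was the lowest for 36 of 48, among them all 14 core genes but 0 of the 3 immunoproteasome genes, where it was the lowest for 24.46% of all genes. Median deviations of the 48 genes from their means over the 6 libraries were -0.08, -0.01 and -0.29 on the log2 scale in the DKO libraries, against -0.09, 0.44 and 0.05 in the WT libraries. Members together made up 0.646%, 0.741% and 0.674% of all FPKM in the DKO libraries, against 0.726%, 0.885% and 0.691% in the WT libraries. Other values moved with these libraries. Ribosomal protein genes took 30.2%, 29.3% and 22.6% of FPKM in the DKO libraries, against 26.7%, 33.2% and 33.7% in the WT libraries, and small RNA rows took 13.7%, 14.4% and 19.7% in the DKO libraries, against 15.9%, 12.9% and 12.98% in the WT libraries. The summed myeloid genes stood at 2.49, 2.74 and 0.732 FPKM in the DKO libraries, against 1.11, 7.30 and 1.99 FPKM in the WT libraries, so WT library 1 was the highest and DKO library 2 the lowest here too. The part of these values in the proteasome levels was not tested.

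**Figure D4:**
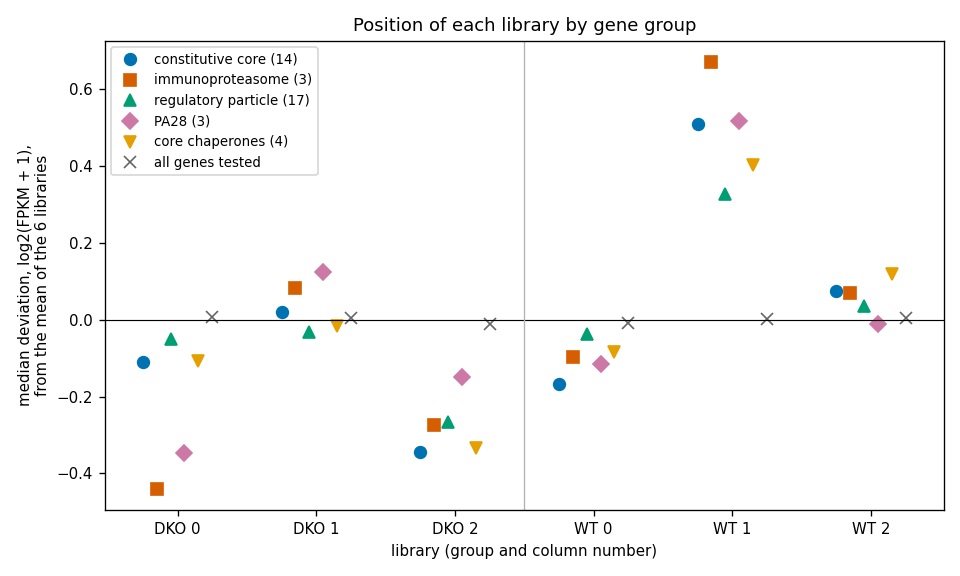
Median deviation, on the log2(FPKM + 1) scale, of each proteasome group from its mean over the 6 libraries, for the 3 DKO (left) and 3 WT (right) libraries, with all genes tested as crosses. WT library 1 is the highest for every group shown, and DKO library 0 is lowest for the immunoproteasome and PA28 genes while DKO library 2 is lowest for the core.

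For the comparison of the genotypes before culture, group values of the authors' deposited table gave the same slight direction at 0 h. In the authors' deposited table, 0 of 48 proteasome genes were called at 0 h at q under 0.05 with at least a 2-fold difference, where 2.92% of all genes were called higher and 2.42% lower. At q under 0.05 alone, 9 of 48 were lower in DKO cells (18.75%), where 17.1% of all genes were, and 0 were higher, where 14.6% of all genes were. The median log2 fold change of the 48 in the authors' deposited table was -0.15, against -0.0094 over all genes. Psmb9 was the lowest, at 128 FPKM in DKO cells and 183 FPKM in WT cells (log2 fold change -0.51, q = 0.000315 in the authors' deposited table). Psmg1 stood at 14.9 FPKM in DKO cells and 21.0 FPKM in WT cells in the authors' deposited table (log2 fold change -0.50, q = 0.0006), and Psmg4 at 41.4 FPKM in DKO cells and 52.2 FPKM in WT cells (log2 fold change -0.33, q = 0.025). Psme2b was again on the other side, at 36.6 FPKM in DKO cells and 25.1 FPKM in WT cells (log2 fold change 0.55, q = 0.069 in the authors' deposited table). From the authors' deposited table, Psmb9 over Psmb6 at 0 h was 1.76 in DKO cells and 2.34 in WT cells, Psmb8 over Psmb5 was 3.53 in DKO cells and 3.803 in WT cells, and Psmb10 over Psmb7 was 1.56 in DKO cells and 1.41 in WT cells.

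At 72 h, the authors' deposited table called 0 of 48 proteasome genes between the genotypes, where 1.65% of all genes were called higher and 3.9% lower. At q under 0.05 alone, 9 of 48 were lower in DKO cells in the authors' deposited table, where 9.97% of all genes were, and 0 were higher, where 6.54% of all genes were. The 9 were Psma1, Psma2, Psma5, Psmb2, Psmb7, Psmb9, Psmb10, Psmd6 and Psme2. Of these, Psmb2, Psmb9 and Psmd6 were also below that q at 0 h in the authors' deposited table. None of the 9 passed limma's adjustment, and at an unadjusted p under 0.05 limma had 6 lower members. What sets these results apart from the authors' q-values was not tested.

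Over 72 h of culture, many proteasome genes rose, nearly all of them by less than 2-fold. In DKO cells, the authors' deposited table had 23 of 48 higher at 72 h at q under 0.05 (47.92%), where 24.7% of all genes were, and the median log2 fold change was 0.29. In WT cells, 33 of 48 were higher (68.75%), where 25.8% of all genes were, and the median in the authors' deposited table was 0.41. With the 2-fold minimum, 0 of 48 were called higher in DKO cells (5.64% of all genes) and 4 of 48 in WT cells (8.74% of all genes), namely Psmb5, Psmb8, Psmg3 and Psmc3ip in the authors' deposited table. All genes had medians of 0.017 in DKO cells and 0.013 in WT cells.

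Immunoproteasome and core genes changed over time by more than the regulatory particle in both genotypes, by their medians in the authors' deposited table, a difference that was not tested. The medians for DKO cells were 0.69 for the immunoproteasome, 0.43 for the constitutive core, 0.54 for the core chaperones, 0.31 for PA28 and 0.22 for the regulatory particle. For WT cells the medians were 0.74, 0.58, 0.52, 0.38 and 0.32 in the same order. Psmb8 stood in DKO cells at 517 FPKM at 72 h and 290 FPKM at 0 h (log2 fold change 0.84, q = 0.00023), and in WT cells at 680 FPKM at 72 h and 328 FPKM at 0 h (log2 fold change 1.05, q = 0.0002), in the authors' deposited table. Group values depend on the comparison in the authors' deposited table, where Psmb8 in DKO cells at 72 h is 517 FPKM in the comparison over time and 521 FPKM in that between genotypes. Psmb5 stood in DKO cells at 158 FPKM at 72 h and 82.1 FPKM at 0 h (log2 fold change 0.94), and in WT cells at 197 FPKM at 72 h and 86.4 FPKM at 0 h (log2 fold change 1.19), in the authors' deposited table. The level of Psmb8 over Psmb5 was 3.27 at 72 h and 3.53 at 0 h in DKO cells, and 3.46 at 72 h and 3.803 at 0 h in WT cells, from the authors' deposited table. The other pairs were higher at 72 h. From the authors' deposited table, Psmb9 over Psmb6 was 1.89 at 72 h and 1.76 at 0 h in DKO cells. In WT cells it was 2.35 at 72 h and 2.34 at 0 h in the authors' deposited table. Psmb10 over Psmb7 was 1.69 at 72 h and 1.56 at 0 h in DKO cells, from the authors' deposited table. In WT cells this ratio was 1.64 at 72 h and 1.41 at 0 h in the authors' deposited table. Psmg3, a core chaperone, had the largest change among the 46 subunits and partners, at 16.7 FPKM at 72 h and 8.58 FPKM at 0 h in DKO cells (log2 fold change 0.96) and at 22.3 FPKM at 72 h and 8.08 FPKM at 0 h in WT cells (log2 fold change 1.46), in the authors' deposited table.

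Psmc3ip showed the widest gap between the genotypes' changes over time. In the authors' deposited table it stood in DKO cells at 6.11 FPKM at 72 h and 4.83 FPKM at 0 h (log2 fold change 0.34, q = 0.58), and in WT cells at 11 FPKM at 72 h and 3.92 FPKM at 0 h (log2 fold change 1.49, q = 0.021). Psme2b fell in both, with log2 fold changes of -1.07 in DKO cells (q = 0.00023) and -0.98 in WT cells (q = 0.0083) in the authors' deposited table, and it was the 1 member called lower in DKO cells, where 3.91% of all genes were. At q under 0.05 alone it was also the 1 lower member in each genotype in the authors' deposited table, where 20.6% of all genes were lower in DKO cells and 22.5% in WT cells. No member was called lower over time in WT cells, where 4.52% of all genes were. Psme4, with log2 fold changes of -0.16 in DKO cells and -0.19 in WT cells in the authors' deposited table, did not pass q under 0.05 in either. Psmc6, an ATPase of the base, had -0.09 in DKO cells, and Psmd5 had -0.13 in WT cells, neither below that q in the authors' deposited table.

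The signed log2 change over time, DKO minus WT, was below 0 for 42 of 48 genes (87.5%) in the authors' deposited table, where it was below 0 for 48.77% of 10518 genes. The 42 include Psme2b, which fell in both genotypes, and Psmc6, with log2 fold changes of -0.09 in DKO cells and 0.081 in WT cells in the authors' deposited table. All 14 constitutive core and all 17 regulatory particle subunits were among the 42. The median of this difference was -0.11 on the log2 scale from the authors' deposited table, and it was not tested, because only group values were used at 0 h. By this difference Psmg3 had -0.50, Psmb10 -0.37 and Psma5 -0.35, while Psmg1 had 0.22, Psmd5 0.15, Psmg4 0.075 and Psmb9 0.053, from the authors' deposited table. The comparison over time in WT cells and that between genotypes at 72 h share the WT libraries at 72 h, among them WT library 1, in which most members were highest.

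**Figure D5:**
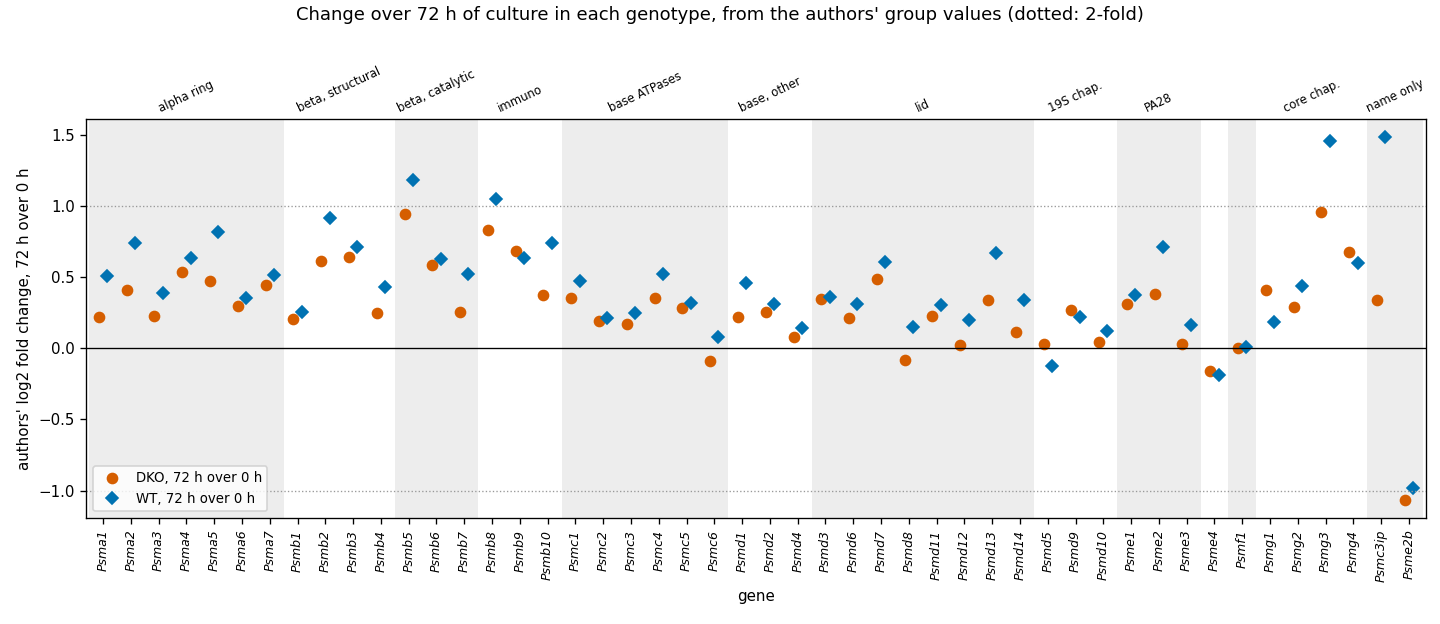
Authors' log2 fold change of each of the 48 proteasome genes over 72 h of culture in DKO cells (circles, left) and WT cells (diamonds, right), with dotted lines at 2-fold. Most points lie between 0 and 1, the WT point is the higher of the pair for 42 genes, and Psme2b lies near -1 in both genotypes.

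Other genes that work with the proteasome were also examined. Of 19 cofactors and shuttle factors tested, 0 were called, where 10.7% of all genes were called in either direction. Their median log2 fold change was -0.040, with 12 below 0 and 7 above 0. Uchl5, a deubiquitinase bound to the regulatory particle, stood at 22.0, 21.6 and 19.9 FPKM in the DKO libraries, against 28.0, 37.3 and 26.8 FPKM in the WT libraries (log2 fold change -0.50, limma adjusted p = 0.074). Its DKO libraries lay wholly below, as did those of Vcp and Nploc4, where 17.1% of all genes did so. Ube3c went the other way, at 14.2, 13.7 and 12.9 FPKM in the DKO libraries, against 12.1, 11.5 and 11.4 FPKM in the WT libraries (log2 fold change 0.20, limma adjusted p = 0.12). The DKO libraries lay wholly above for Ube3c and Ubqln4, where 17% of all genes did so. Pomp, which matures the core, stood at 157, 179 and 125 FPKM in the DKO libraries, against 150, 331 and 193 FPKM in the WT libraries (log2 fold change -0.48, limma adjusted p = 0.38). Its order of libraries was that of the core genes, with WT library 1 highest and DKO library 2 lowest. Nfe2l1, which encodes the factor that raises transcription of proteasome genes when the proteasome is inhibited, stood at 29.8, 29.1 and 26.6 FPKM in the DKO libraries, against 21.9, 21.9 and 24.3 FPKM in the WT libraries. All DKO libraries lay above all WT libraries, as for 17% of all genes, with a log2 fold change of 0.32 (limma adjusted p = 0.057). Of the 4 genes Nfe2l1, Nfe2l2, Ddi2 and Ngly1, 0 were called, where 10.7% of all genes were.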

How the data were processed

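RNA was measured in 3 DKO and 3 WT samples at 72 h, grouped by their titles. Per the submitters' processing notes the tools were FastQC, TopHat2 2.1.0 and Cuffdiff 2.2.1, with builds mm10 and mm9 named without a role. Gene models were not given in the sources used here. In the table that the authors deposited, each library has an FPKM value, and each pairwise comparison has a log2 fold change with its p-value and q-value. The authors' calls were found to be q under 0.05, at least 2-fold, and a higher group of 1 FPKM or more. The 6 columns of single libraries at 0 h were left unused, since they match none of the 6 samples. FPKM depends on library scaling, so a change in abundant RNA shifts all genes.

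Values were analysed as log2(FPKM + 1), which understates changes of low genes, with limma 3.58.1 in R 4.3.3 (mean-variance trend, group as the only term, two-sided, Benjamini-Hochberg over 10723 genes). Ratios were tested by exact permutation with numpy 2.4.6 in Python 3.11.15, and figures were drawn with matplotlib 3.10.9. The fit was tested on simulated data. Members and lists were chosen with earlier results of these data known, and some genes of the lists are not reported here. Named genes were the catalytic, immunoproteasome and PA28 genes, called members, the 2 of smallest p in each subgroup, and in the authors' comparisons the called members and the 3 largest changes each way. Correlations of deviations between libraries of the same column number were -0.168, 0.0363 and -0.0143. Between different numbers they ran from -0.122 to 0.133. With 3 libraries per group these values cannot settle whether the numbers pair the samples, and the main fit used no pairing.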

Additional observations from a re-analysis of the deposited data

How the results depend on the processing

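The call of Psmc3ip as the 1 lower member was lost, leaving 0, with a pseudocount of 5, with no filter, with a filter at a mean of 5 FPKM, with small RNA rows removed, without the variance trend, with the column number as a replicate block, and when DKO library 2 and WT library 0 were both left out. Leaving out each library gave 0 to 1. The authors' calls gave 0 and the authors' q under 0.05 alone gave 9. The replicate block called 356 genes in all, against 1144 without it. With small RNA rows removed and libraries rescaled, the higher share of all calls was 52.1% in place of 40.4%. The median of all genes was then 0.16 in place of 0.0082. The median of the regulatory particle was -0.064 in place of -0.23, a distance of -0.23 from all genes in place of -0.24. The median of the base chaperones was 0.0081 with small RNA rows removed, a distance of -0.16 in place of -0.17. It was 0.017 without WT library 1.

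Leaving out each library gave medians of -0.40 to -0.10 for the constitutive core, -0.58 to -0.20 for the immunoproteasome, -0.29 to -0.12 for the regulatory particle, -0.28 to 0.017 for the base chaperones, -0.37 to -0.12 for PA28, -0.41 to -0.15 for the core chaperones and -0.37 to -0.11 for all 48. The bound nearest 0 came from leaving out WT library 1 in each, and -0.37 for all 48 from leaving out WT library 0. The log2 ratio differences ranged from -0.22 to 0.091 for Psmb8 over Psmb5 (0.0021 without WT library 0), from -0.48 to -0.057 for Psmb9 over Psmb6, and from -0.078 to 0.22 for Psmb10 over Psmb7 (-0.078 without DKO library 2, -0.046 without WT library 2). Paired by column number as a replicate block, the exact p-values were 1.0, 0.5 and 0.75.

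Of 375 values for 25 named genes under alternatives, 356 kept direction and side of the threshold, 12 for Psmc3ip missed the threshold and 7 changed sign. These were Psmb6 (0.062 with small RNA rows removed, 0.075 without DKO library 2, and from -0.32 to 0.080 over single libraries left out, the upper bound from WT library 1), Psmd9 (0.0012 with small RNA rows removed, and from -0.34 to 0.017 over single libraries left out, the upper bound from WT library 1), Psmd10 (0.0081) and Psme3 (0.0020), both with small RNA rows removed. With small RNA rows removed, the median of all genes was 0.16, above the values of these genes in that setting. The causes of the sign changes were not tested. At q under 0.05 with no fold minimum, the authors' table had 9 members lower between genotypes at 0 h, 23 higher over time in DKO cells, and 33 higher and 1 lower (Psme2b) over time in WT cells. Psma8 and Psmb11 lay below the filter at a mean of 1 FPKM and were not tested.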
